A study of Mus musculus with 6 samples.

Results

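The core circadian clock was examined through 10 genes, Per1, Per2, Per3, Cry1, Cry2, Arntl, Clock, Nr1d1, Nr1d2 and Dbp, chosen by name from the 24411 gene symbols of each count table. All 10 had enough counts to be tested, among 13076 genes tested in all. Of the 2 activator genes, Arntl and Clock, Clock rose by 9.24% in myotubes given Sardomozide, a call near the threshold that was lost in 11 of 15 alternative fits, and Arntl did not pass the test. Of the 7 repressor genes 0 rose and 0 fell by edgeR's test, and the output gene Dbp did not pass either. Per2, Per3 and Dbp lay lower in every Sardomozide library than in every DMSO library without passing the test, with changes of −13.9%, −15.3% and −15.5%. Over all genes tested 16.3% were called, 7.88% as higher and 8.45% as lower. For 33.5% the groups did not overlap in either direction, and 16.5% lay lower in every Sardomozide library.

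The libraries were made from total RNA of C2C12, an established mouse muscle cell line labelled wild type in all 6 libraries. The labels name the cells myoblasts, but the titles and protocols speak of myotubes, and cells were switched to medium with horse serum until they had fully differentiated. The treated cultures then received 10 µM Sardomozide dihydrochloride, an inhibitor of the polyamine enzyme encoded by Amd1, for 72 h, and the controls received DMSO, the solvent, for 72 h (3 libraries each). The time of day of harvest, the last change of medium and any step that synchronises the cells could not be learned from the labels, and each group was taken at 1 time after treatment. A change in the level of a clock gene therefore cannot be told apart from a change in the phase of its rhythm.

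The mammalian clock is a transcriptional feedback loop. BMAL1, the product of Arntl, and CLOCK pair on E-box elements and activate the Per, Cry, Nr1d and Dbp genes. PER and CRY proteins return to the nucleus and block that pair, which closes the main loop. REV-ERB proteins, the products of Nr1d1 and Nr1d2, repress Arntl and Clock through elements that ROR receptors activate, and DBP activates genes with a D-box, Per genes among them. In skeletal muscle the clock is known for its control of fuel use and of some structural genes. Because of this wiring, Arntl and its REV-ERB repressors peak at opposite times in a synchronised culture.

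Library totals ran from 30820423 to 36709804 counts with Sardomozide and from 25496323 to 32108033 with DMSO. The members took 0.0384% to 0.0397% of the counts with Sardomozide and 0.0382% to 0.0404% with DMSO, and each had between 353 and 4339 counts in a library. Differentiated muscle markers (9 of 9 tested, from Acta1 to Myog) summed to 19408 to 21216 CPM with Sardomozide and 18745 to 20185 CPM with DMSO, where CPM stands for counts scaled to a common library size with TMM factors. Of these, Myog, a factor of early differentiation, rose by 18.5% and Mb, the myoglobin gene, fell by 18.2% (edgeR adjusted p = 0.00055 and 0.00635), and the part of such differences in the clock gene values was not tested. Markers of undifferentiated or cycling myoblasts (5 genes, Mki67 and Pax7 among them) summed to 336 to 362 CPM with Sardomozide and 310 to 326 CPM with DMSO. Of these only Mki67 was called, as a rise (edgeR adjusted p = 0.0443). Top2a, Ccnb1 and Pax7 had higher means with Sardomozide but did not pass (edgeR adjusted p = 0.0906, 0.235 and 0.24). Myf5 went the other way, with a log2 fold change of −0.15 (edgeR adjusted p = 0.368). Whether the share of such cells contributes to the clock gene values was not tested. Ptprc, Rbfox3, Snap25, Adipoq, Plin1 and Ibsp, markers of blood, nerve, fat and bone cells, had 0 counts in all 6 libraries. Other genes of these lists were counted. Runx2 on the bone list had means of 49.3 CPM with Sardomozide and 52.9 CPM with DMSO. Pparg on the fat list had 4.43 and 3.66 CPM, and Cd68 on the blood list 1.98 and 1.63 CPM. The 4 endothelial markers summed to at most 0.896 CPM with Sardomozide and 1.07 CPM with DMSO. Tubb3 on the nerve list fell to 15.8 ± 0.089 CPM with Sardomozide, against 26.7 ± 3.14 CPM with DMSO (SD, n = 3 each; edgeR adjusted p = 7.84e-06). In such bulk samples of a muscle cell line, a shift in the share of cell states and a change in RNA per cell cannot be told apart.

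The promoters of some members hold motifs known from the loop, and they are shown as a guide to its wiring. RefSeq windows of 300 bases (250 before to 50 after a start, build GRCm38.p6) were at hand for 9 of the 10 members, Per2 being the other, with 13 start sites in all. Both strands were searched for the E-box CACGTG, its variant CACGTT, the D-box forms TTATGTAA and TTACGTAA, and AGGTCA, the core of the element that REV-ERB and ROR receptors share. The motifs differ in letters and no matches overlapped. CACGTG was found for Cry1 and Per1, and CACGTT for Cry1, Cry2 and Nr1d1. They stand in 7.15% and 4.68% of all 32851 windows. TTATGTAA was found for Per3 alone among the members with a window (0.938% of all windows), and TTACGTAA for 0 members (0.119%). AGGTCA was found for Arntl, Clock, Nr1d2 and Per1 (16.3% of all windows). These shares are of single windows, whereas members were counted as genes, some of them with more than 1 window. The counts of members can therefore not be set directly against the shares. A match is a run of letters and not a measured binding site. The 4 windows below were picked because Clock was the gene that rose, Per3 carries a pair of D-boxes, and Cry1 and Per1 carry the E-box. For Clock and Per1 the window shown is 1 of 3 and 1 of 2, and the others hold none of these motifs, those of Clock at the 5′ end of the annotated gene included. Distances count from the start of the window shown. Matches on either strand are in capitals, so TGACCT is AGGTCA and AACGTG is CACGTT read from the other strand.

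Clock, chr5:76303453-76303752, minus strand, with AGGTCA 119 bases before the start: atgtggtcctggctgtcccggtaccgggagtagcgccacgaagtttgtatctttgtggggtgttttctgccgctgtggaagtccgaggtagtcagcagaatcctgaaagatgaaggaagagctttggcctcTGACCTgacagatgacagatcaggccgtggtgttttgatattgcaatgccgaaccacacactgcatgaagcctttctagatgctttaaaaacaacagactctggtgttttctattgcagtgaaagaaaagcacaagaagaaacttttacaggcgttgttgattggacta

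Per3, chr4:151044616-151044915, minus strand, with TTATGTAA 205 and 158 bases before the start: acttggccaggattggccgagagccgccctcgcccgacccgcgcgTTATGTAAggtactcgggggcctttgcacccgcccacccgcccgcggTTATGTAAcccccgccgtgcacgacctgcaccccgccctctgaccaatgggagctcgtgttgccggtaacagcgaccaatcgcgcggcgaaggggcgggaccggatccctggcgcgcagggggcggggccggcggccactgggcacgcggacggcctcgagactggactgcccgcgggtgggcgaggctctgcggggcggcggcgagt

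Cry1, chr10:85185005-85185304, minus strand, with CACGTT 79 and CACGTG 60 bases before the start: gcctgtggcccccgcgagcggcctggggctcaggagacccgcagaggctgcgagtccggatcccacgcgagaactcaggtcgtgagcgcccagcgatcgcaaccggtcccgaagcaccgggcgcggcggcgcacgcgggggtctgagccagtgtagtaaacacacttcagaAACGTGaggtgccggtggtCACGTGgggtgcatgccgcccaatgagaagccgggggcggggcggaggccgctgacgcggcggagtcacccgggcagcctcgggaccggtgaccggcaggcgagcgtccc

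Per1, chr11:69098699-69098998, plus strand, with CACGTG 166 and AGGTCA 137 bases before the start: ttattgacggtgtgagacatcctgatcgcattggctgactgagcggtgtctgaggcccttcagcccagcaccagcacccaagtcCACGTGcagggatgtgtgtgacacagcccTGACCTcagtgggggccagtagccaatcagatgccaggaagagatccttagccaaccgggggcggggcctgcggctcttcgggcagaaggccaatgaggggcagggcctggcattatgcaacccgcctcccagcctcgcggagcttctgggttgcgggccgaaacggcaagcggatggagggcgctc

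Clock (chromosome 5, 76209868 to 76304792, minus strand, GRCm38) encodes the histone-acetylating partner of BMAL1 and was the most highly counted member. It had 119, 121 and 120 CPM in the Sardomozide libraries, against 108, 110 and 112 CPM in the DMSO libraries. Every Sardomozide library lay above every DMSO library, and the replicates of a group differed by little. The means were 120 ± 0.886 CPM with Sardomozide and 109.8 ± 1.99 CPM with DMSO (SD, n = 3 each), a log2 fold change of 0.13 ± 0.043 (SE, edgeR adjusted p = 0.045). The 95% interval of the change ran from 2.73% to 16.2%. Among the 2135 called genes 99.3% changed by more, and the p of Clock ranked 2039. The call was lost in 11 of 15 alternative fits, whichever library was left out (adjusted p = 0.0507 to 0.159) and with DESeq2 (adjusted p = 0.0612), while the log2 fold change stayed between 0.12 and 0.14.

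Arntl (chromosome 7, 113207465 to 113314126, plus strand), which encodes BMAL1, the partner with which CLOCK binds DNA, had 28.4, 26.4 and 29.2 CPM with Sardomozide, against 31.0, 26.9 and 27.4 CPM with DMSO. The groups overlapped, with DMSO replicate 1 the highest library. The log2 fold change was −0.02 ± 0.075 (edgeR adjusted p = 0.889), and its 95% interval allowed a change between −11.5% and 9.83%. Its sign turned to 0.02 without Sardomozide replicate 2 and to 0.04 without DMSO replicate 1.

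**Figure D1:**
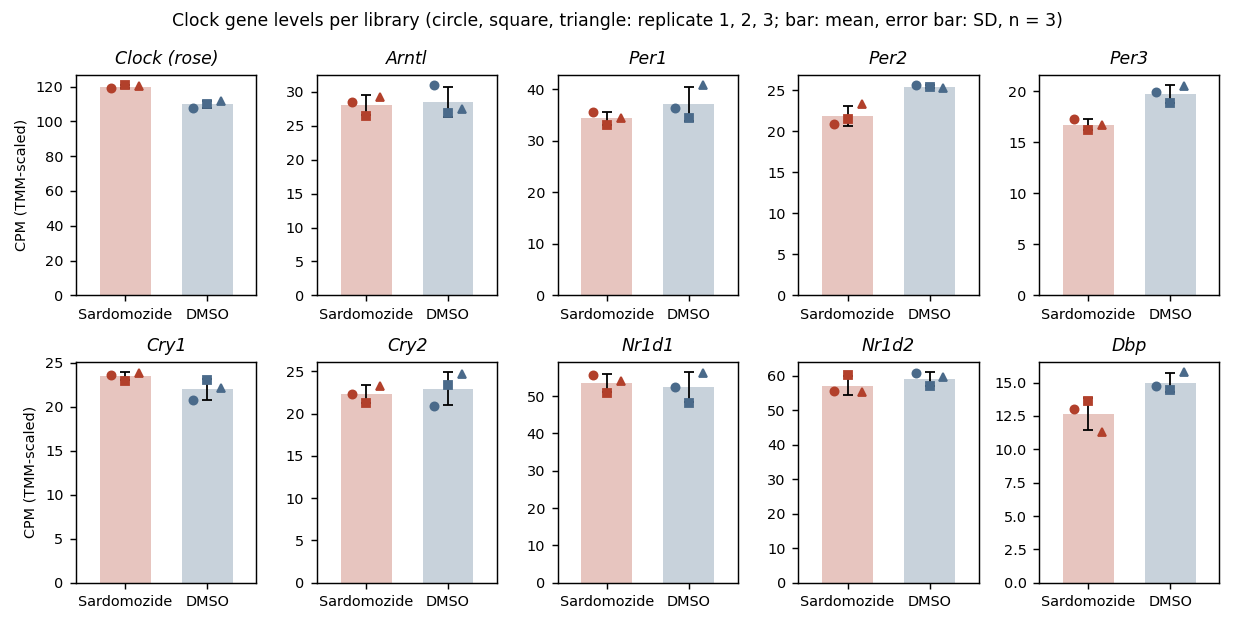
TMM-scaled CPM of each of the 10 clock genes in the 3 Sardomozide and 3 DMSO libraries, with bars for the mean and error bars for the SD; each panel has its own vertical axis from 0. Clock lies higher in all Sardomozide libraries (119 to 121 CPM, against 108 to 112 CPM with DMSO), Per2, Per3 and Dbp lie lower in all of them, and the groups of the other 6 genes overlap.

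The period genes encode the proteins that, with CRY, inhibit CLOCK and BMAL1, and their own genes answer to serum, cyclic AMP and glucocorticoids. Per2 (chromosome 1, 91415982 to 91459324, minus strand) had 20.95, 21.5 and 23.3 CPM with Sardomozide, against 25.7, 25.4 and 25.3 CPM with DMSO. The groups did not overlap, and the DMSO libraries were the closest to each other of any member but Clock with Sardomozide (CV 0.786% and 0.739%). The log2 fold change was −0.22 ± 0.075 (edgeR adjusted p = 0.0546). Per3 (chromosome 4, 151003652 to 151044665, minus strand), whose product is dispensable for the core loop in mice, had 17.3, 16.2 and 16.7 CPM with Sardomozide, against 19.9, 18.8 and 20.5 CPM with DMSO. Again the groups did not overlap. The log2 fold change was −0.24 ± 0.083 (edgeR adjusted p = 0.0554).

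Per1 (chromosome 11, 69095217 to 69109960, plus strand), the period gene most quickly induced by outside signals, had 35.6, 33.0 and 34.5 CPM with Sardomozide, against 36.3, 34.5 and 40.8 CPM with DMSO. The groups overlapped, and DMSO replicate 3 stood above the other libraries. The log2 fold change was −0.11 ± 0.07 (edgeR adjusted p = 0.296), with a 95% interval from −16.4% to 2.22%. Without DMSO replicate 3 the log2 fold change of Per1 was −0.04. For Per2 and Per3 the intervals ran from −22.7% to −4.01% and from −24.9% to −4.4%, without allowance for the number of genes tested. Both passed as falls with the stricter filter on low counts, which tests fewer genes (edgeR adjusted p = 0.0482 and 0.0497). Per2 also passed without Sardomozide replicate 3 (edgeR adjusted p = 0.0419). In 13 of 15 alternative fits Per2 did not pass, and in 14 of 15 Per3 did not (edgeR adjusted p up to 0.144 and 0.189).

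The cryptochromes are the stronger inhibitors of CLOCK and BMAL1. Cry1 (chromosome 10, 85131700 to 85185064, minus strand) ran from 23.0 to 23.8 CPM with Sardomozide and from 20.7 to 23.0 CPM with DMSO, and the ranges overlapped at their edge. Its log2 fold change was 0.09 ± 0.076 (edgeR adjusted p = 0.451). Cry2 (chromosome 2, 92403646 to 92434043, minus strand) ran from 21.3 to 23.3 CPM with Sardomozide and from 20.8 to 24.6 CPM with DMSO, with a log2 fold change of −0.04 ± 0.081 (edgeR adjusted p = 0.776). The 95% intervals were −4.45% to 19.1% for Cry1 and −13.7% to 9.16% for Cry2. The sign of Cry2 turned to 0.01 without DMSO replicate 3. Cry2 shares 295 exon bases (4.67% of its exons) with D930015M05Rik on the other strand.

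Nr1d1 and Nr1d2 encode REV-ERB alpha and beta, nuclear receptors that bind haem and recruit the corepressor NCOR1. Nr1d1 (chromosome 11, 98767932 to 98775333, minus strand) had 55.6, 50.8 and 54.0 CPM with Sardomozide, against 52.5, 48.2 and 56.2 CPM with DMSO. Nr1d2 (chromosome 14, 18204054 to 18239127, minus strand) had 55.7, 60.3 and 55.4 CPM with Sardomozide, against 60.7, 56.9 and 59.6 CPM with DMSO. The groups overlapped for both genes. Their log2 fold changes were 0.03 ± 0.062 and −0.05 ± 0.055 (edgeR adjusted p = 0.779 and 0.619). The 95% intervals, −6.46% to 11.8% and −10.6% to 4.79%, were among the narrowest of the members. Without DMSO replicate 2 the sign of Nr1d1 turned to −0.03. Nr1d1 shares 263 exon bases (8.55% of its exons) with Thra on the other strand, and the strand setting of the counting is not given in the sources used here, so such shared bases leave both genes uncertain.

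Dbp (chromosome 7, 45705088 to 45710203, plus strand) encodes a PAR bZIP factor and is a classical direct output of the CLOCK and BMAL1 pair, with wide swings in tissues. It had 13.0, 13.6 and 11.3 CPM with Sardomozide, against 14.8, 14.4 and 15.8 CPM with DMSO. The groups did not overlap, and Sardomozide replicate 3 was the lowest. The log2 fold change was −0.24 ± 0.099 (edgeR adjusted p = 0.102), the largest drop among the members and also the one with the largest error. Its 95% interval ran from −26.8% to −2.49%. Dbp shares 539 exon bases (18% of its exons) with Sphk2 on the other strand, whose own log2 fold change was −0.12 (edgeR adjusted p = 0.28). With the strand setting of the counting not given, these shared bases leave Dbp and Sphk2 uncertain, as they do Nr1d1 and Thra.

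Set against the 16.3% of all genes that were called, 1 of 10 clock genes was called, as higher, and 0 as lower. Groups that did not overlap were seen for 4 of 10 clock genes, 3 of them lower, against 33.5% of all genes (16.5% lower). Before adjustment 4 of 10 clock genes (Clock, Per2, Per3 and Dbp) and 29.6% of all genes had p under 0.05 in edgeR's test. The median log2 fold change was −0.05 for the members, with 7 below 0 and 3 above, and −0.00082 for all genes. The median absolute log2 fold change was 0.1 for the members and 0.12 for all genes. The share of clock genes whose groups did not overlap was thus near that of all genes. Without DMSO replicate 1 the genes called in all were 1326 in place of 2135.

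**Figure D2:**
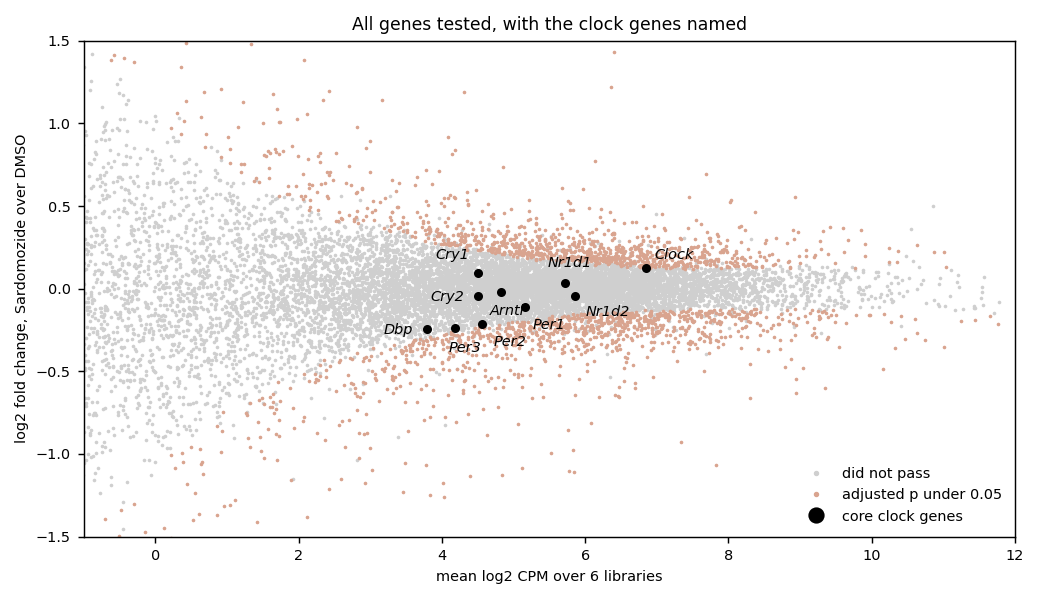
Log2 fold change of Sardomozide over DMSO against mean log2 CPM for the genes tested, with genes that passed in colour and the 10 clock genes in black; 499 genes lie outside the range shown. Clock lies at 0.13 and Per2, Per3 and Dbp between −0.22 and −0.24, while the called genes reach much further in both directions.

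**Figure D3:**
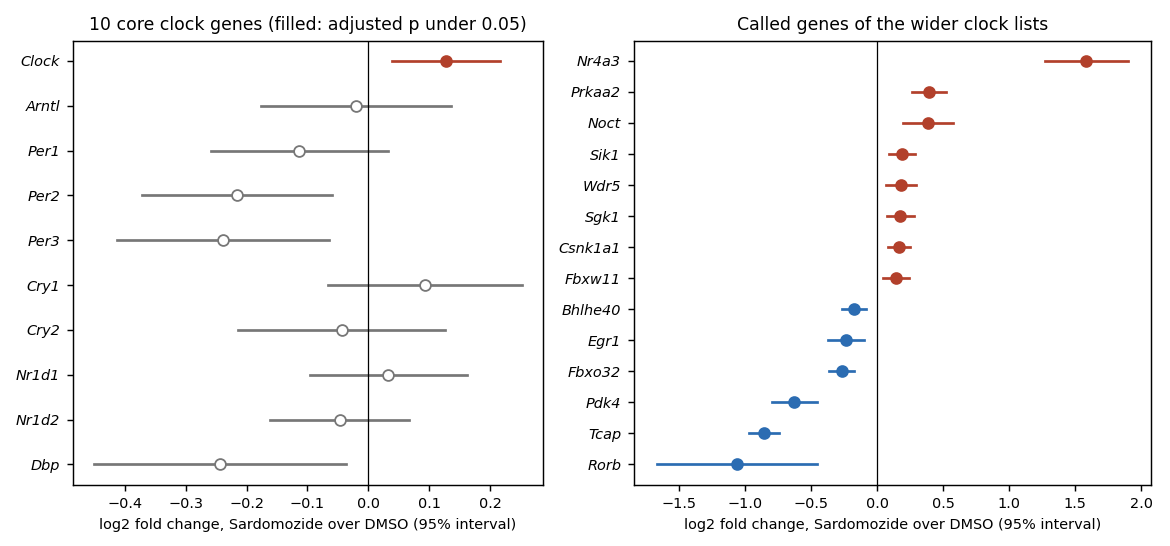
Log2 fold changes with 95% intervals for the 10 clock genes (left) and for the called genes of the wider clock lists (right); filled points passed an adjusted p of 0.05, and the horizontal scales differ. The intervals of 6 clock genes include 0, while those of Clock, Per2, Per3 and Dbp do not.

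Whether the arms of the loop moved in opposite directions was read from each library. The mean log2 CPM of Arntl and Clock was 5.86, 5.82 and 5.89 with Sardomozide and 5.85, 5.77 and 5.79 with DMSO, so the groups overlapped. The mean log2 CPM of the 7 repressors was 4.90, 4.86 and 4.91 with Sardomozide and 4.94, 4.93 and 5.03 with DMSO, lower in every Sardomozide library. The difference of activators minus repressors was 0.961, 0.959 and 0.977 with Sardomozide and 0.913, 0.834 and 0.766 with DMSO. It was thus higher in every Sardomozide library, with group means of 0.966 ± 0.00994 and 0.837 ± 0.0735 (SD, n = 3 each). The mean log2 CPM of the 3 period genes, of which 0 passed the test and Per1 overlapped between the groups, was 4.54 ± 0.0376 with Sardomozide and 4.73 ± 0.0596 with DMSO, whereas that of the Cry and Nr1d genes was 5.15 ± 0.0199 with Sardomozide and 5.14 ± 0.0525 with DMSO. These means are descriptions of chosen members and were given no test. Within each arm the members lay on both sides of 0, with 1 activator above and 1 below, and 2 repressors above and 5 below.

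**Figure D4:**
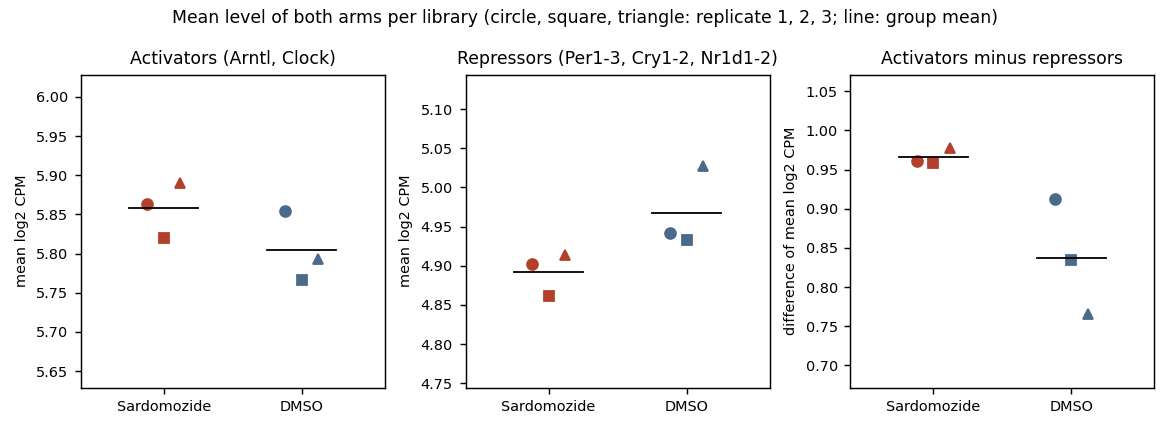
Mean log2 CPM of the activators, of the repressors, and their difference, for each library, with a line at the group mean; all 3 vertical axes span the same range of log2 units and do not start at 0. The activator means of the groups overlap, the repressor means are lower in all Sardomozide libraries, and the difference is higher in all of them (0.959 to 0.977, against 0.766 to 0.913 with DMSO).

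Ratios of members within a library do not depend on how libraries are scaled. The log2 ratio of Arntl to Nr1d1, genes that peak at opposite times in a synchronised clock, was −0.969, −0.946 and −0.886 with Sardomozide and −0.761, −0.839 and −1.04 with DMSO. The groups overlapped (difference −0.05, two-sided exact permutation p = 0.6). The log2 ratio of Arntl to Clock was −2.07, −2.19 and −2.04 with Sardomozide and −1.80, −2.026 and −2.03 with DMSO. It was lower in every Sardomozide library (difference −0.15, exact permutation p = 0.1). Without DMSO replicate 1 this difference shrank to −0.073. The log2 ratio of Cry1 to Cry2 was 0.0775, 0.111 and 0.0313 with Sardomozide and −0.0082, −0.0213 and −0.155 with DMSO. It was higher in every Sardomozide library (difference 0.13, exact permutation p = 0.1). Those of Per1 to Per2, Per2 to Per3 and Nr1d1 to Nr1d2 overlapped between the groups, with differences of 0.11, 0.02 and 0.08 (exact permutation p = 0.4, 0.8 and 0.4). Adjusted over the 6 ratios the exact permutation p was 0.3 or more for each, and 0.1 is the smallest p that 3 against 3 libraries can give. No ratio could therefore pass at 0.05 in this design.

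Levels were compared between members as CPM per kilobase of annotated exon. Nr1d1 stood highest, at 17.4 ± 0.79 with Sardomozide and 17.0 ± 1.31 with DMSO (SD, n = 3 each), followed by Nr1d2, at 10.6 ± 0.513 with Sardomozide and 10.9 ± 0.356 with DMSO. Clock came next, at 8.74 ± 0.0637 with Sardomozide and 8.0 ± 0.142 with DMSO. Per1 had 6.1 ± 0.227 with Sardomozide and 6.6 ± 0.582 with DMSO, and Cry1 had 7.02 ± 0.133 with Sardomozide and 6.57 ± 0.345 with DMSO. The libraries of these neighbours overlapped with DMSO, and with Sardomozide Cry1 lay above Per1 in every library. Dbp, Per2, Arntl and Cry2 lay between 3.53 and 4.22 with Sardomozide and between 3.63 and 5.0 with DMSO. With Sardomozide each of these 4 overlapped with the next, whereas with DMSO the neighbours Arntl and Cry2 did. Per3 was lowest, at 1.74 ± 0.0569 with Sardomozide and 2.06 ± 0.0895 with DMSO, clear of its neighbour in both groups. The order was otherwise the same in both groups, and these levels rest on the summed exons of all annotated transcripts, which can be longer than the RNA present.

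**Figure D5:**
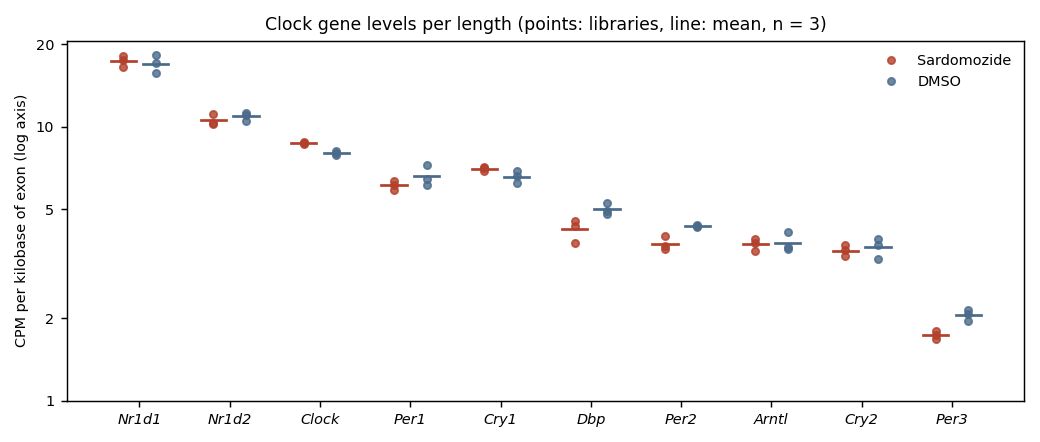
CPM per kilobase of exon (log axis) of the 10 clock genes, in order of the DMSO mean, with points for libraries and a line for the mean of 3. Nr1d1 lies near 17 in both groups and Per3 near 2 (1.74 with Sardomozide, 2.06 with DMSO).

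The members varied little between replicates, with coefficients of variation from 0.739% (Clock with Sardomozide) to 9.47% (Dbp with Sardomozide). DMSO replicate 3 was the highest of all 6 libraries for 5 members (Per1, Per3, Cry2, Nr1d1 and Dbp), and the highest DMSO library for 6. Sardomozide replicate 2 was the lowest of all for 3 (Arntl, Per1 and Per3). On the first principal component of all genes, which held 39.8% of the variance, the groups separated, and on the second DMSO replicate 1 stood apart (19.2, against −8.72 and −12.5 for the other DMSO libraries). Without that library 0 clock genes were called, Clock having an adjusted p of 0.159 in edgeR's test. Clock also lost its call when any other library was left out (edgeR adjusted p = 0.0507 to 0.117).

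The genes most like Clock over the 6 libraries, by the root mean square difference of centred log2 CPM among 10270 other genes, were Ints1, Plbd2, Dstyk, Szrd1 and Csnk2a1, at 0.0101 to 0.0162. Csnk2a1 encodes a catalytic subunit of casein kinase 2. Their log2 fold changes lay between 0.12 and 0.15 (edgeR adjusted p = 0.0286 to 0.0489). These genes were picked for their likeness to Clock in the same libraries, so this nearness follows from the choice and adds no support.

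Of 57 other genes tied to the clock, on 5 lists, 54 were tested, 8 rose, 6 fell and 40 did not pass. Of all genes tested 7.88% were called as higher and 8.45% as lower. The lists were chosen with earlier results of these data known, so their counts are descriptions and no test against those shares. Among other clock transcription factors 0 of 10 tested rose and 2 fell. Rorb, which encodes a ROR receptor better known from the brain and retina, had 1.04 ± 0.289 CPM with Sardomozide and 2.18 ± 0.282 CPM with DMSO (SD, n = 3 each; log2 fold change −1.06 ± 0.29, edgeR adjusted p = 0.0154), a low level. Its call was lost when Sardomozide replicate 1, DMSO replicate 1 or DMSO replicate 2 was left out (adjusted p = 0.0632, 0.071 and 0.0529). Bhlhe40, whose product DEC1 competes for E-boxes, fell to 267 ± 12.1 CPM with Sardomozide, against 301.4 ± 2.51 CPM with DMSO (log2 fold change −0.18 ± 0.043, edgeR adjusted p = 0.00748; 0.0531 without Sardomozide replicate 3). Its relative Bhlhe41 had a log2 fold change of 0.12 ± 0.046 (edgeR adjusted p = 0.081). Rora, which encodes another ROR receptor, gave 0.03 ± 0.1, and the DBP relative Tef and the D-box repressor Nfil3 gave 0.08 ± 0.043 and 0.13 ± 0.061, none of which passed. The median of this list was −0.01 on the log2 scale.

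Of 11 tested enzymes that modify or degrade clock proteins, 3 rose and 0 fell (7.88% and 8.45% over all genes), with a median log2 fold change of 0.03. Prkaa2, an AMPK catalytic subunit whose kinase marks CRY1 for breakdown, rose most, with 45.4 ± 2.29 CPM with Sardomozide and 34.6 ± 1.19 CPM with DMSO (log2 fold change 0.39 ± 0.062, edgeR adjusted p = 0.000165). The casein kinase gene Csnk1a1 rose by 12.1% and Fbxw11, a subunit of a ubiquitin ligase of PER proteins, by 10.5% (edgeR adjusted p = 0.00791 and 0.0453). Fbxw11 lost its call in 9 of 15 alternative fits (adjusted p up to 0.236). Csnk1d and Csnk1e, the main kinases of PER proteins, had log2 fold changes of 0.01 ± 0.042 and −0.04 ± 0.042 and did not pass. Of 10 cofactors 1 rose and 0 fell. That gene was Wdr5, a histone methylation subunit found with PER proteins, with 60.2 ± 2.75 CPM with Sardomozide and 53.1 ± 1.67 CPM with DMSO (edgeR adjusted p = 0.0273). It lost its call in 5 of 15 alternative fits, without Sardomozide replicate 2 or any of the DMSO libraries among them (adjusted p up to 0.118). Ncor1, the REV-ERB corepressor gene, had a log2 fold change of 0.1 ± 0.041 (edgeR adjusted p = 0.118).

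Of 12 clock-controlled output genes, all tested, 1 rose and 3 fell, against 16.3% of all genes called. In 7 of 15 alternative fits, DESeq2, limma-voom and the replicate block among them, 5 output genes were called in place of 4. The rise was that of Noct, counted under its older symbol Ccrn4l, which encodes a rhythmic phosphatase, at 21.4 ± 0.886 CPM with Sardomozide and 16.3 ± 1.91 CPM with DMSO (log2 fold change 0.39 ± 0.091, edgeR adjusted p = 0.00587). The falls were those of Tcap, a sarcomere gene with a rhythm in muscle (log2 fold change −0.85 ± 0.054), Pdk4, a brake on glucose oxidation (−0.63 ± 0.081), and the atrophy ligase gene Fbxo32 (−0.27 ± 0.046), with edgeR adjusted p of 2.04e-09, 2.28e-05 and 0.000392. Myod1, an E-box target of the clock in muscle, gave −0.11 ± 0.042 and did not pass (edgeR adjusted p = 0.0844). Hk2, the muscle hexokinase gene, had 149 ± 24 CPM with Sardomozide and 109 ± 4 CPM with DMSO (log2 fold change 0.45 ± 0.12, edgeR adjusted p = 0.0517), higher in every Sardomozide library but short of the threshold. All of these output genes also answer to other regulators.

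Of 11 tested input genes, which serum, cyclic AMP or glucocorticoids induce and which share such inputs with the period genes, 3 rose and 1 fell, against 16.3% of all genes called. Nr4a3 rose most, with 11.9 ± 1.27 CPM with Sardomozide and 3.94 ± 0.906 CPM with DMSO (log2 fold change 1.58 ± 0.15, edgeR adjusted p = 4.97e-07). Sik1, a kinase gene that limits light and cyclic AMP signals to the clock, rose by 14.2%, and Sgk1 by 12.9% (edgeR adjusted p = 0.00809 and 0.0166). Egr1 fell by 15.1% (edgeR adjusted p = 0.0228). Sik1 lost its call without DMSO replicate 1 (adjusted p = 0.0576), and Sgk1 without Sardomozide replicate 3 (0.0892), DMSO replicate 1 (0.0702) or DMSO replicate 2 (0.0598). Egr1 lost its call without Sardomozide replicate 2 (adjusted p = 0.0771) or 3 (0.0603), or DMSO replicate 2 (0.051) or 3 (0.0734). Fkbp5, Tsc22d3 and Klf9, which respond to glucocorticoids, had log2 fold changes of 0.03 ± 0.058, −0.15 ± 0.053 and −0.11 ± 0.057 and did not pass, and Zbtb16 had 0 counts throughout, which allows up to 0.118 CPM in the smallest library for counting error alone. Without DMSO replicate 2, 9 genes of the 5 lists were called in place of 14.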

How the data were processed

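RNA-seq libraries of C2C12 myotubes (3 with Sardomozide, 3 with DMSO) were grouped by their labels. The authors deposited raw read counts, 1 table of gene symbols a library, marked as stranded without the setting. STAR, StringTie, DESeq2, GRCm38 and mm10 stand in the submitters' processing notes, and the version and annotation of each is not given in the sources used here. Nothing says that replicates were separate cultures, so the p-values reflect the spread between libraries alone, possibly a technical one. A count of 0 allows 3 counts (0.0823 to 0.118 CPM, counting error only). No replicate pair agreed within sampling noise (chi-square per degree of freedom 5.45 to 16.1).

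All genes entered one edgeR 4.0.16 quasi-likelihood fit (R 4.3.3; filterByExpr with 10 counts and 15 in total, TMM, robust, two-sided), adjusted by Benjamini-Hochberg over 13076 genes. A gene was called at an adjusted p below 0.05. Standard errors and 95% intervals follow from each fold change with its F value. Log2 CPM used a prior count of 2, and ratios within a library added 0.5 to each count. The fit was tested on simulated data. Exon lengths and positions came from GENCODE M21 (GRCm38). Through older symbols 2 listed genes were matched.

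The members and lists were chosen with earlier results of these data known. The text names all members, every called gene of the wider lists, and the 5 genes most like the member with the smallest adjusted p. Other genes were picked after their values were seen. Alternatives were other scaling factors (RLE, upper-quartile, none), limma-voom (3.58.1), DESeq2 1.42.0, other filters, a replicate block, non-robust estimation and leaving out each library.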

Additional observations from a re-analysis of the deposited data

How the results depend on the processing

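The number of clock genes called was 1 in the reported fit and 0 with DESeq2, limma-voom, no filter, the replicate block or non-robust estimation. It was 3 with the stricter filter (Clock, Per2 and Per3), which tests fewer genes and called 2074 of 11578. It ran from 0 to 1 when each library was left out. The 1 was Per2, without Sardomozide replicate 3, and Clock was called in none of those fits. Clock kept its call with the stricter filter and with RLE, upper-quartile and no scaling factors. Genes called over the transcriptome, 2135 in the reported fit, ran from 1326 (without DMSO replicate 1) to 1952 when a library was left out, and were 1820 with the replicate block. On the 5 wider lists 9 to 14 genes were called when a library was left out. Same-numbered libraries did not deviate together (r = 0.0219, −0.0233 and −0.0178), so the numbers were not taken as pairs. When each library was left out the log2 fold change ran from −0.059 to 0.043 for Arntl, with 0.02 without Sardomozide replicate 2, from −0.025 to 0.089 for Nr1d1 and from −0.11 to 0.0098 for Cry2, so the sign turned for each. The sign also turned for differences in log2 ratios, which ran from −0.024 to 0.0798 for Per2 to Per3 (−0.01 without DMSO replicate 3) and from −0.13 to 0.0046 for Arntl to Nr1d1. None of these had passed a test, and the cause was not tested. The sign of each member held under every other scaling, tool and filter tried. Of the 5 genes most like Clock, 1 was also among the first 5 by Pearson r. AGGTCA was found for 3 members instead of 4 in the bases before the start alone. Hlf, Fbxl21 and Zbtb16 had too few counts to be tested at this depth.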
